A study of Mus musculus with 12 samples.

Results

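H3K27ac, the acetylation of lysine 27 on histone H3, was mapped by chromatin immunoprecipitation and sequencing (ChIP-seq) in mouse melanoma cells with mutant or intact Kmt2d, and the peak list of the mutant library was set against that of the WT library. The comparison uses 2 of the 12 samples of the series, those titled for H3K27ac in each genotype, and 47403 of the 173601 peaks in the 10 deposited lists. The mutant list held 22343 H3K27ac peaks and the WT list 25060. Each genotype has 1 H3K27ac library, so nothing here has a replicate check, no p-value is given, and every difference describes these 2 lists.

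The mutant cells came from ear tumours of iBIP;KMT2DL/L mice and the WT cells from iBIP;KMT2D+/+ mice, on a mixed FVB and B6 background. Both genotypes carried the other iBIP alleles. These are an inducible oncogene (TetO-BRAFV600E with Rosa26-rtta), conditional alleles of 2 tumour suppressor loci (INK/ARFL/L and PTENL/L) and the recombinase Tyr-CreERT2, so the WT cells were engineered tumour cells too. Mice of both genotypes received doxycycline, and 4-OHT at 1 uM was put on their ears. The tumour cells were grown in culture, and the labels call the mutant cells both mutant and KO. The H3K27ac antibody was the same for both genotypes. Cre is driven by the tyrosinase promoter and acts in the melanocyte lineage. The labels do not say whether the cells of a genotype came from 1 tumour or were pooled. The lists carry no expression values, so neither the melanocyte identity nor the loss of Kmt2d could be checked in them.

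H3K27ac is placed by the acetyltransferases p300 and CBP and marks active promoters and active enhancers. KMT2D, an H3K4 mono-methyltransferase, acts mainly at enhancers and works together with p300 there. Strongly acetylated enhancers often lie close together in clusters around genes that define a cell's identity.

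A peak here is an interval on the mouse build mm9 with a score given by the authors' caller. The score reads as a multiple of the −log10 of a p-value. Scores were used mainly to rank or filter peaks within a list. Fixed score cuts and comparisons of both scores of a pair also set the libraries side by side. Peak lists hold no read counts, so the depth of both libraries is unknown, and a peak missing from a list shows only that none passed the threshold there. Values are for chromosomes 1 to 19 unless said otherwise, where the mutant list held 22083 peaks and the WT list 24759. Chromosome X had 257 peaks in the mutant list and 298 in the WT list, and chromosome Y had 3 in each. Shares carry exact (Clopper-Pearson) 95% binomial intervals, and ratios of counts the matching conditional interval. Counting error is all that these intervals cover. Neighbouring peaks, like the many positions common to both lists, are not independent.

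The mutant list had fewer but wider H3K27ac peaks. Its number of autosomal peaks was 0.892 times that of the WT list (95% interval 0.876 to 0.908), a difference of 2676 peaks. Its covered length was nevertheless 1.02 times as great, at 53.6 Mb in the mutant list and 52.6 Mb in the WT list. The median peak was 1847 bp wide in the mutant list and 1618 bp in the WT list. The widths of the middle 50% of peaks ran between 1263 and 2788.5 bp in the mutant list, against 1118 to 2444 bp in the WT list, so the mutant distribution lay higher as a whole. The widest single peak was 42743 bp in the mutant list and 31757 bp in the WT list.

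Peaks were followed through groups of intervals that overlapped by at least 1 bp, which splits the differences in number and length by kind of locus. Of the net 2676 peaks, 1879 were the excess of WT peaks with no mutant peak over mutant peaks with no WT peak. Another 752 came from WT peaks that lay under a single mutant peak, net of the opposite case. The remaining 45 came from loci with several peaks on both sides. By length, the mutant list had 1.74 Mb more in peaks that matched one-to-one and 0.725 Mb more where WT peaks were joined. It had 1.43 Mb less in unshared peaks. Loci divided in the mutant list differed by -0.0984 Mb and loci with several peaks on both sides by 0.0974 Mb, both small beside the other terms.

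The lower number of mutant peaks was spread over the autosomes. The mutant over WT ratio of peak numbers was below 1 on all 19 autosomes, with a 95% interval wholly below 1 on 14 of them. On 18 of the 19 the interval held the ratio over all autosomes, 0.892. These intervals take the counts of both lists as independent, although most peaks were shared. Chromosome 7 had the lowest ratio, 0.856 (0.799 to 0.918), with 1501 mutant and 1753 WT peaks. Chromosome 13 had the highest, 0.980 (0.897 to 1.07), with 1007 mutant and 1028 WT peaks, and was the exception among the 19. No chromosome's share of its list differed between mutant and WT by more than 0.408 percentage points, the value for chromosome 13, which held 4.56% of the mutant list and 4.15% of the WT list. Covered length went the other way from number on most chromosomes. It was greater in the mutant list on 16 of 19 autosomes, with ratios between 0.970 on chromosome 6 and 1.08 on chromosome 12, and it was smaller on chromosomes 1, 3 and 6. The median peak was wider in the mutant list on all 19.

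**Figure D1:**
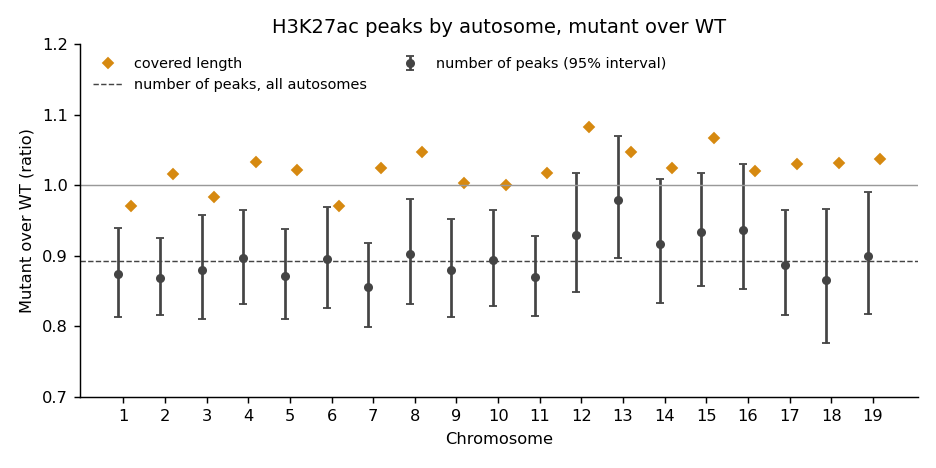
Mutant over WT ratio of the number of H3K27ac peaks (circles, bars are 95% conditional binomial intervals) and of covered length (diamonds) for each autosome on the x axis; the dashed line is the ratio of peak numbers over all autosomes, 0.892. The circles lie below 1 on each autosome, between 0.856 and 0.980, while 16 of the 19 diamonds lie above 1.

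At a finer scale the numbers also ran in parallel. Of 490 windows of 5 Mb with a peak, 416 held at least 20 peaks of both lists together, with 98.5% of all autosomal peaks. Over these 416 windows the Spearman rho between mutant and WT peak numbers was 0.980, a description across windows that share gene density. The window ratio ran from 0.752 at the 10th percentile to 1.05 at the 90th, with a median of 0.889. Its 95% interval lay wholly to one side of 0.892 in 2 windows, 1 on each side. These intervals also take both counts as independent although most peaks were shared, so they are wide and few windows could fall outside.

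The lower of those 2 was on chromosome 11 from 85000001 to 90000000, with 60 mutant and 100 WT peaks, a ratio of 0.600 (0.428 to 0.835). Of the WT peaks there, 34 had no mutant peak, while 4 of the mutant peaks had no WT peak. The neighbouring window from 80000001 to 85000000 had 89 mutant and 91 WT peaks, and the one from 90000001 to 95000000 had 29 mutant and 37 WT peaks. The higher of the 2 was on chromosome 6 from 95000001 to 100000000, with 56 mutant and 40 WT peaks and a ratio of 1.40 (0.917 to 2.16), where 22 mutant and 4 WT peaks were unshared. Over all autosomes 18.4% of mutant and 24.0% of WT peaks were unshared. Both windows were picked by their ratio of peak numbers, so more unshared peaks in the list with more peaks follow in part from the choice. The other windows at the ends of the range had intervals that held 0.892. Chromosome 2 from 135000001 to 140000000 had 16 mutant and 10 WT peaks, and chromosome 15 from 65000001 to 70000000 had 50 mutant and 37 WT peaks. On chromosome 15 the covered length also differed, at 134311 bp in the mutant list and 78257 bp in the WT list. At the low end, chromosome 17 from 60000001 to 65000000 had 7 mutant and 13 WT peaks and chromosome 5 from 85000001 to 90000000 had 8 mutant and 14 WT peaks.

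H3K27ac peaks lay close together in both lists to a similar degree. The median gap between neighbouring peaks was 13162.5 bp in the mutant list and 12152.5 bp in the WT list. A neighbour within 12.5 kb, a distance commonly used to stitch enhancers, was found for 67.7% (67.1 to 68.3) of mutant peaks and 68.9% (68.4 to 69.5) of WT peaks. The difference was -1.22 percentage points (-2.07 to -0.379), and it turned round, to 1.94, when only as many of the strongest WT peaks were kept as the mutant list holds. At close range the shares were also near each other, with 7.96% of mutant and 7.97% of WT peaks having a neighbour within 100 bp, and 23.4% of mutant and 24.2% of WT peaks within 500 bp.

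Joined across gaps of up to 12.5 kb, the mutant peaks formed 11249 clusters and the WT peaks 12298. Lone peaks were 32.3% (31.7 to 32.9) of the mutant list and 31.1% (30.5 to 31.6) of the WT list. Clusters of 10 or more peaks numbered 153 in the mutant list and 202 in the WT list, and held 9.62% (9.23 to 10.0) of mutant and 11.2% (10.8 to 11.6) of WT peaks. Cluster size counts called peaks, so it depends on the length of the list and on how neighbours are joined into single peaks. These shares were not recomputed with lists of equal length. By their medians, peaks in such clusters were also the widest and best scored of their own list. Their median width was 2170 bp in the mutant list, against 1770 bp for lone mutant peaks, and 1887 bp in the WT list, against 1556 bp for lone WT peaks.

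**Figure D2:**
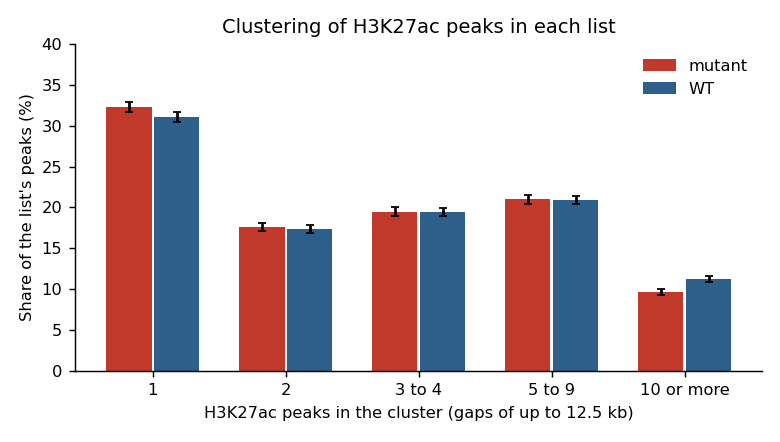
Share of each list's autosomal H3K27ac peaks (y axis, %) by the number of peaks in their cluster (x axis); bars are shares and error bars 95% binomial intervals. Lone peaks are 32.3% of the mutant and 31.1% of the WT list, peaks of clusters of 10 or more 9.62% and 11.2%, and the other sizes lie closer together.

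Large clusters of one list almost always held at least 1 peak of the other, with different numbers of peaks. Among the 887 mutant clusters of at least 5 peaks, 5 had no WT peak, and among the 1029 WT clusters of that size 2 had no mutant peak. Since 81.6% of all mutant and 76.0% of all WT peaks were shared, few clusters of that size could lack one. Within the WT clusters the mutant list had 6402 peaks against 7957 WT peaks, but nearly the same covered length, 19.95 Mb in the mutant list and 20.5 Mb in the WT list. Within the mutant clusters it had 6758 peaks over 19.99 Mb and the WT list 6239 peaks over 17.1 Mb. Each set of clusters was defined by the list that then shows more peaks in it, so these directions follow in part from the choice.

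The most peak-rich clusters of the 2 lists fell largely on the same places. The cluster with the most mutant peaks was on chromosome 8 from 129169941 to 129445280, with 44 mutant and 40 WT peaks, and H3K27ac covered 66.3% of it in the mutant list and 52.2% in the WT list. The fourth WT cluster, from 129278224 to 129454432, overlapped it. The second mutant cluster, on chromosome 17 from 26599532 to 26814692 with 38 mutant and 42 WT peaks, coincided with the first WT cluster, from 26600988 to 26827032, with 37 mutant and 43 WT peaks. On chromosome 6 from 133983806 to 134172898, the third WT cluster, 34 mutant peaks covered 56.0% of the length and 35 WT peaks 66.3%. The fourth mutant cluster, from 134038248 to 134171665, lay inside it, and this was the only one of these places where the mutant list covered less.

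The other 2 places were among the 4 most peak-rich clusters of 1 list only. On chromosome 2 from 167510470 to 167786563, the second WT cluster, the mutant list had 25 peaks and the WT list 41. The mutant peaks nevertheless covered 81.8% of these 276094 bp, and the WT peaks 63.1%. Both lists had their widest autosomal peak in this cluster, at 42743 bp in the mutant and 31757 bp in WT. On chromosome 1 from 172827975 to 172991586, the third mutant cluster, 31 mutant peaks covered 36.6% of the length and 27 WT peaks 33.7%.

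Shared H3K27ac lay in 16831 loci, most of them with 1 peak on each side. Such one-to-one pairs made up 86.2% (85.7 to 86.7) of the shared loci, or 14508 pairs, which hold 65.7% of the mutant list and 58.6% of the WT list. In 1266 loci a single mutant peak overlapped several WT peaks, and in 650 a single WT peak overlapped several mutant peaks. Joining in the mutant list was thus 1.95 times (1.77 to 2.14) as frequent as dividing. The remaining 407 loci had several peaks on both sides, a count that depended on the settings: it was 55 with overlap of at least 50% of the shorter peak, 42 with peaks first joined across up to 500 bp, and 174 with scores of at least 200. Joined loci outnumbered divided ones on 18 of 19 autosomes, with ratios of up to 3.16. The exception was chromosome 6, with 46 joined and 51 divided loci.

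Joined loci were mostly pairs of WT peaks. Of the 1266, 1103 held 2 WT peaks, 141 held 3, 15 held 4 and 7 held 5 or 6. Of the 650 divided loci, 596 held 2 mutant peaks, 49 held 3 and 5 held 4. The single peak of such a locus was wide, with a median of 4491 bp for mutant peaks in joined loci and 4081.5 bp for WT peaks in divided loci. The pieces were short, with a median of 1626 bp for mutant pieces and 1629 bp for WT pieces.

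The gaps that were closed were short. Of 14716 gaps between neighbouring WT peaks that both had a mutant peak, 1982 were spanned by a single mutant peak, with a median of 182.5 bp and 95% of them under 1290.75 bp. Of 15050 such gaps between mutant peaks, 1185 were spanned by a single WT peak, with a median of 151 bp. At equal gap length, mutant peaks spanned WT gaps more often than WT peaks spanned mutant gaps. For gaps of 1 to 100 bp the shares were 82.4% (79.6 to 85.0) for mutant peaks over WT gaps and 68.1% (64.4 to 71.7) for WT peaks over mutant gaps. For gaps of 501 to 1000 bp mutant peaks spanned 31.5% (28.3 to 34.9) of WT gaps and WT peaks 17.0% (14.3 to 20.1) of mutant gaps. For gaps of 1001 to 2000 bp the shares were 11.9% (9.86 to 14.2) for mutant peaks and 4.90% (3.54 to 6.59) for WT peaks. The difference had this direction in each of the 6 length classes, and in none did the intervals overlap.

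**Figure D3:**
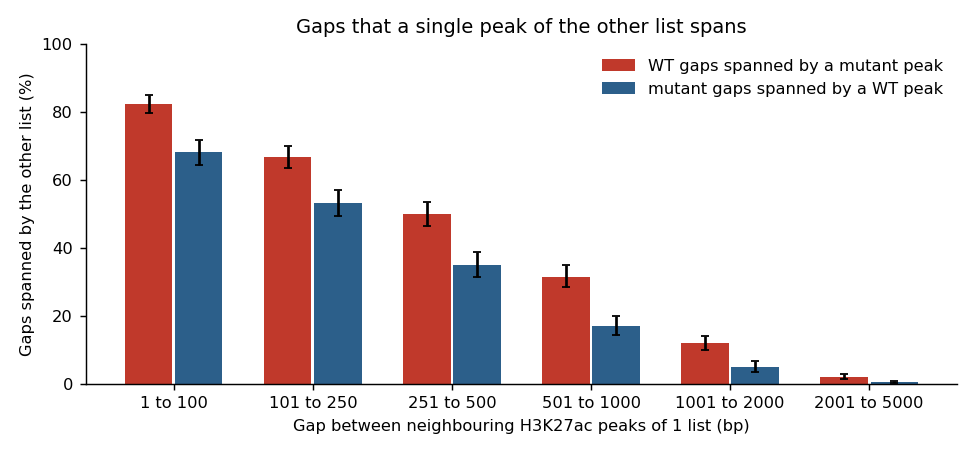
Share (y axis, %) of gaps between neighbouring H3K27ac peaks of 1 list that a single peak of the other list spans, by gap length (x axis, bp); error bars are 95% binomial intervals. Mutant peaks over WT gaps lie above WT peaks over mutant gaps in each class, at 82.4% and 68.1% for the shortest and 2.10% and 0.388% for the longest.

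The loci with the most joined peaks were wide domains. On chromosome 2 from 28371658 to 28396676, a single mutant peak of 25019 bp overlapped 6 WT peaks that covered 20081 bp, with gaps of 59 to 2086 bp. On chromosome 2 from 167648895 to 167666255, inside the cluster with the widest peaks, 1 mutant peak of 17361 bp overlapped 6 WT peaks with 10192 bp and gaps of up to 2418 bp. On chromosome 15 from 83255318 to 83266545, 1 mutant peak of 11228 bp lay over 6 WT peaks with 8539 bp and gaps of up to 1054 bp. These 3 thus had a single called peak in the mutant list where the WT list had gaps of over 1 kb between called peaks. In the order given, the mutant peaks scored 535.67, 1114.47 and 3000.13, and the best WT peaks 2283.95, 1421.71 and 589.63. The fourth locus, on chromosome 15 from 77626923 to 77655299, had 1 mutant peak of 28377 bp over 5 WT peaks of 28504 bp in all. The gaps between these WT peaks were short, at 24 to 435 bp.

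Dividing reached 4 mutant peaks under 1 WT peak. The widest case was on chromosome 15 from 31258596 to 31284521, where 4 mutant peaks with 24293 bp lay under a WT peak of 25926 bp, with gaps of 76 to 844 bp. On chromosome 7 from 16627408 to 16645221, 4 mutant peaks had 16299 bp and the WT peak 17814 bp, with gaps of up to 1409 bp. On chromosome 13 from 49390705 to 49406514 the gaps between 4 mutant peaks were 5 to 217 bp. Under the WT peak on chromosome 10 from 82429195 to 82439137 they were 11 to 282 bp, and the 4 mutant peaks together were longer than the WT peak, at 10057 bp in the mutant and 9943 bp in WT, and reached beyond its ends.

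In the one-to-one pairs, mutant peaks were slightly wider. The median of mutant over WT width was 1.03, with 80% of pairs between 0.749 and 1.52. The mutant peak was the wider of the pair in 56.7% (55.9 to 57.5) of cases, and the median width was 1999 bp for the mutant and 1883 bp for the WT peaks of the pairs. The median ratio was above 1 on all 19 autosomes, from 1.01 to 1.06. Among all 14508 pairs, 1545 mutant peaks (10.6%) were at least 1.5 times wider than their WT peak and 889 (6.13%) at least 1.5 times narrower, a ratio of 1.74 (1.60 to 1.89).

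Mutant edges lay further out on both sides by like amounts. The median shift was 28 bp outwards at the left edge of the mutant peak and 25 bp at the right edge, while the median size of a shift in either direction was 160 bp. The mutant peak wholly contained the WT peak in 32.2% (31.4 to 33.0) of pairs and lay wholly within it in 21.2% (20.6 to 21.9). In the other 46.6% one edge lay outside and the other inside. The overlap was large for most pairs, with a median of 91.4% of the mutant peak and 95.7% of the WT peak.

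Large differences in width were more frequent at weak peaks, while the direction was the same at all strengths. In the weakest quintile of pairs by mean rank, 14.2% of mutant peaks were at least 1.5 times wider and 9.17% at least 1.5 times narrower. The next quintile had the highest shares, 16.4% and 9.86%. In the strongest quintile these shares were 2.93% and 1.79%, both well under the 10.6% and 6.13% over all pairs. The median width ratio ran between 1.01 in the strongest quintile and 1.05 in the next to weakest. Grouped by width instead, it was 1.03 in the narrowest quintile, 1.05 in the middle quintile and 1.02 in the widest.

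**Figure D4:**
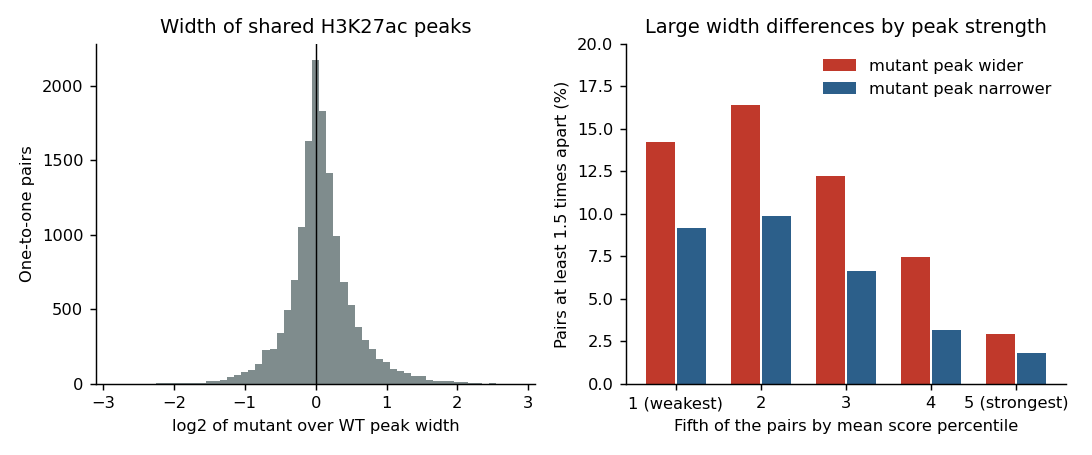
Left, number of one-to-one pairs (y axis) by log2 of mutant over WT H3K27ac peak width (x axis; values beyond 3 are drawn in the last bar). Right, share of pairs (y axis, %) in which the mutant peak is at least 1.5 times wider or narrower, by quintile of the pairs by mean score percentile; wider exceeds narrower in each quintile, at 14.2% and 9.17% in the weakest and 2.93% and 1.79% in the strongest.

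Score and width were closely tied within each list, with a Spearman rho of 0.836 across the mutant peaks and 0.860 across the WT peaks of the pairs. Width was therefore also compared in the 1836 pairs whose scores lay within 10% of each other and below 3100. There the median ratio of mutant over WT width was 1.06 and the mutant peak was wider in 65.3% (63.0 to 67.4), with 112 pairs at least 1.5 times wider and 22 at least 1.5 times narrower. This sets scores of 2 libraries of unknown depth side by side, and the choice of pairs bears on the value. The mutant score was the lower in 66.1% of all pairs, with medians of 337 in the mutant and 430.1 in WT, so a like score goes with a higher place in the mutant ranking. Quintiles of the rank difference are also a choice by score. In the next to highest, pairs moderately higher in the mutant ranking, the median width ratio was 1.09 and 69.1% were wider in the mutant. In the middle quintile these values were 1.01 and 54.6%, and in the next to lowest 0.974 and 42.9%.

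Among the 9418 pairs with scores of at least 200 in both lists, the greatest gain in width was 5.03 times, on chromosome 8, where the mutant peak ran from 26119362 to 26124440 (5079 bp) and the WT peak from 26120188 to 26121197 (1010 bp). The next pairs adjoined each other on chromosome 7. The mutant peak from 149664028 to 149671570 (7543 bp) was 4.55 times as wide as its WT peak of 1656 bp, and reached further out by 2932 bp on the left and 2955 bp on the right. The mutant peak from 149655736 to 149663494 (7759 bp) was 4.04 times as wide as its WT peak of 1921 bp. On chromosome 12 the mutant peak from 25923183 to 25927486 was 3.79 times as wide as its WT peak. All 4 stood higher in the mutant ranking: the mutant peaks were at the 91.5th, 94.9th, 91.9th and 92.1st score percentile of the pairs, and the WT peaks at the 25.2nd, 49.0th, 37.4th and 31.0th. These pairs were chosen by width, and score and width were closely tied, so their rise in rank is not a separate observation.

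Among the same pairs with scores of at least 200 in both lists, the greatest losses of width were smaller in fold than the greatest gains. On chromosome 11 the mutant peak ran from 83530685 to 83531912 (1228 bp) and the WT peak from 83528175 to 83532486 (4312 bp), so that the WT peak was 3.51 times as wide. On chromosome 9 the mutant peak (1063 bp) lay inside a WT peak that ran from 50641347 to 50644400, and its outward shift was -48 bp at the left edge and -1943 bp at the right edge, a negative value being inward. On chromosome 17 the mutant peak (1411 bp) met a WT peak that spanned 24612635 to 24616652, with shifts of -2676 bp at the left and 69 bp at the right edge, so that in both places 1 edge held nearly all of the difference. On chromosome 8 the mutant peak (1736 bp) lay inside the WT peak that spanned 96955829 to 96960746, with -1536 bp and -1646 bp at the 2 edges. These WT peaks were 2.87, 2.85 and 2.83 times as wide as the mutant peaks, in the order given.

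The order of the shared peaks by score was broadly kept. Over the 14508 one-to-one pairs, ranked within the pairs so that both rankings have the same length, the Spearman rho was 0.732, and 0.683 to 0.778 on single autosomes. The pairs share genome position, local background and gene content, and rho is given as a description. The median difference between the ranks of a pair was 11.9 percentile points, and 10% of pairs differed by more than 35.5 points. In quintiles of the ranking, 43.9% (43.1 to 44.8) of pairs fell in the same quintile in both lists, 40.5% in neighbouring quintiles and 2.94% (2.67 to 3.23) 3 or 4 quintiles apart. Of those 427 distant pairs, 261 stood higher in the mutant ranking and 166 higher in the WT ranking.

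The strongest peaks kept their place most often. Of the strongest quintile of WT peaks, 71.8% (70.1 to 73.4) were also in the strongest mutant quintile and 0.138% in the weakest. Of the weakest WT quintile, 47.5% (45.7 to 49.3) were in the weakest mutant quintile. In the middle quintile the share was 31.5%, but a peak there can leave both upwards and downwards, unlike a peak in an end quintile. Of the top 10% of the WT ranking, 68.0% (65.6 to 70.4) were in the top 10% of the mutant ranking and 88.9% (87.2 to 90.5) in the top 20%. Scores of exactly 3100 were tied in both lists, at 182 mutant and 301 WT autosomal peaks, and 27 mutant and 38 WT peaks scored above it. Among the pairs, 124 mutant and 190 WT peaks were at or above 3100, in both for 76 pairs. Among peaks tied at exactly 3100 the score gives no order.

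**Figure D5:**
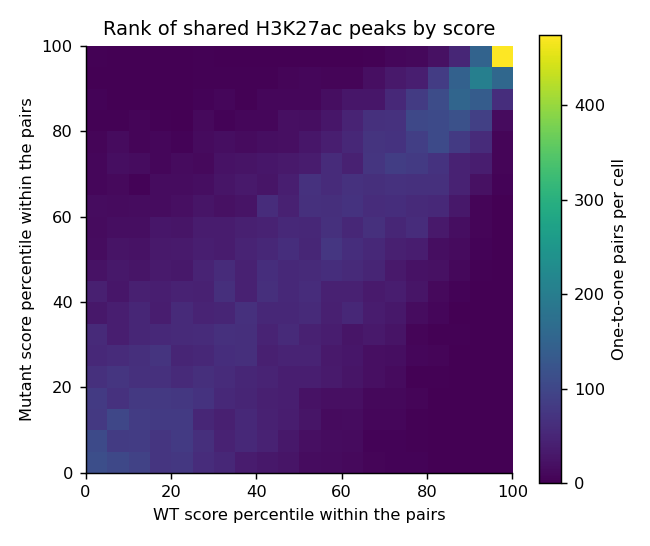
Number of one-to-one H3K27ac pairs (colour) by score percentile of the mutant peak (y axis) and of the WT peak (x axis), both ranked within the 14508 pairs, 100 being the strongest. Pairs follow the diagonal with a Spearman rho of 0.732, most tightly in the upper right corner, where 71.8% of the strongest WT quintile fell in the strongest mutant quintile.

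Changes of rank and of width went together. In the quintile of pairs that stood highest in the mutant relative to the WT ranking, the median mutant over WT width was 1.37 and 1137 of 2902 mutant peaks (39.2%) were at least 1.5 times wider. In the quintile that stood lowest, the median ratio was 0.887 and 620 of 2901 mutant peaks (21.4%) were at least 1.5 times narrower. Across all pairs these shares were 10.6% and 6.13%. Score and width come from the same reads of a library, so these are not independent measures.

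A few pairs moved from one end of the ranking to the other. Among the 14270 pairs below 3100 in both lists, the largest upward shift was on chromosome 8. The mutant peak from 83470625 to 83475229 had a score of 1856.87 and stood at the 96.6th percentile of mutant scores, while the WT peak from 83472920 to 83473731 had a score of 90.72, close to the lowest of its list, 90.02. This mutant peak was 5.67 times as wide as the WT peak. On chromosome 2 the mutant peak from 131711560 to 131717272 stood at the 96.1st percentile and its WT peak at the 7.12th. On chromosome 13 the mutant peak from 37531138 to 37534546 stood at the 88.8th percentile and its WT peak at the 1.44th. On chromosome 1 the mutant peak from 93331711 to 93336785 stood at the 90.6th and its WT peak at the 5.34th. In each of these 4 the WT peak lay wholly within the mutant peak.

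In the opposite direction, the largest shift was on chromosome 4. The mutant peak from 40260009 to 40261044 (score 98.4) stood at the 2.46th percentile, while the WT peak from 40258778 to 40261490 (score 1092.3) stood at the 84.3rd. On chromosome 10 the mutant peak from 96082334 to 96083066 stood at the 0.669th percentile and the WT peak at the 78.2nd, with a width of 733 bp in the mutant and 3707 bp in WT. A second place on chromosome 10, with the mutant peak from 127734393 to 127736429, had percentiles of 9.22 in the mutant and 85.3 in the WT ranking. On chromosome 2 the mutant peak from 103406117 to 103408045 stood at 18.4 and the WT peak at 92.5. These mutant peaks lay wholly within the WT peaks. All 8 places count as shared, although in 1 of the rankings the peak stood at the 18.4th percentile or lower.

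Unshared peaks were weak and narrow in both lists. They made up 18.4% (17.9 to 18.9) of mutant and 24.0% (23.5 to 24.6) of WT autosomal peaks, 4067 and 5946 in number. The difference of -5.60 percentage points (-6.34 to -4.86) turned round, to 2.21, when the WT list was shortened to its 22083 strongest peaks. That setting drops the weakest WT peaks, which were least often shared, and leaves their mutant partners unshared. A shift in this direction therefore follows from the setting. The median width was 1154 bp for unshared and 2066 bp for shared mutant peaks, and 1041.5 bp for unshared and 1893 bp for shared WT peaks. By score, 49.6% (47.5 to 51.7) of the weakest decile of the mutant list and 37.7% (35.8 to 39.6) of the weakest decile of the WT list had a peak of the other list. In the strongest decile these shares were 99.95% in the mutant list and 99.8% in the WT list.

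Mutant-only peaks lay nearer to shared acetylation than WT-only peaks did. A shared peak of the same list lay within 12.5 kb of 62.9% (61.4 to 64.4) of the unshared mutant peaks and of 54.9% (53.6 to 56.1) of the unshared WT peaks, a difference of 7.99 percentage points (6.04 to 9.95). The median distance to the nearest shared peak was 5981 bp for mutant-only and 9570 bp for WT-only peaks. Peaks beside and away from shared ones had nearly the same median width, at 1157 bp beside and 1148 bp away in the mutant list and 1041 bp beside and 1043 bp away in the WT list.

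The next peak of a list was more often unshared after an unshared peak than after a shared one. In the mutant list the next peak was unshared after 27.5% (26.1 to 28.9) of unshared and 16.4% (15.8 to 16.9) of shared peaks, and in the WT list after 31.3% (30.1 to 32.5) of unshared and 21.7% (21.1 to 22.3) of shared peaks. Many still stood alone, since 2224 of the 4067 mutant-only and 2875 of the 5946 WT-only peaks had a shared peak as the next peak on both sides or ended the chromosome. Runs of 3 or more numbered 235 in the mutant list, with 861 of its 4067 unshared peaks, and 413 in the WT list, with 1469 of its 5946. The WT list had more unshared peaks and a higher unshared share, so the numbers of runs are not on a like base.

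In the mutant list, 8 peaks in a row on chromosome 12 from 81005399 to 81051279 had no WT peak among them, covered 13974 bp of 45881 bp and had scores of 90.04 to 487.05. A second run of 8 mutant peaks lay on chromosome 8 from 119573514 to 119603146. A run of 7 on chromosome 16, between 48786300 and 48817971, lay 1226 bp before a shared peak. These 3 were compact, at 29633 to 45881 bp. The other run of 7 mutant peaks, on chromosome 19 from 11182176 to 11681547, was spread over 499372 bp, had a peak with a score of 1083.34, and had 2 WT peaks between its peaks.

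The 4 longest WT runs were spread over 153931 bp or more. A run of 8 WT peaks on chromosome 1 from 154134832 to 154517948 covered 8442 bp of 383117 bp, and its best score was 216.67. On chromosome 7 from 89163007 to 90714857, 7 WT peaks lay over 1551851 bp, with a best score of 820.8 and no mutant peak between them. On chromosome 6 from 125567592 to 126716668, 7 WT peaks over 1149077 bp had 1 mutant peak among them. A run of 7 WT peaks on chromosome 10, between 115797750 and 115951680, had none. The widest of the peaks in these WT runs was 3356 bp, on chromosome 7, and the best score in the other 3 runs was 220.03, below the median of 300.42 of the WT list.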

How the data were processed

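The authors deposited a BED list of peaks for each library, with a score per peak. Each list names a second library beside its own, whose role is not given in the sources used here. Per the submitters' processing notes, Bowtie, MACS, MACS2 and deepTools were used on build mm9, without versions or roles. Peak names in the lists carry the word MACS, and the deposited scores read as a multiple of the −log10 of a p-value. Only the 2 H3K27ac lists were used. Other marks and input were not used here. The genotype came from each sample's title, and X and Y were left out of the main values because the animals' sex is not given.

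Starts were converted to count from 1. Peaks overlapping by at least 1 bp were linked into groups. Gaps run from the end of a peak to the start of the next in the same list. Percentile ranks were taken within the one-to-one pairs, 100 being the strongest. The difference of 2 shares carries a normal (Wald) 95% interval. Windows were assigned by peak midpoint. No test was made, since each genotype has 1 library. Depth is unknown.

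Regions were named by a rule. It took 3 windows at each end of the ratio and 4 of each other kind per side: clusters by peak number, joined and divided loci by peak number, pairs by width ratio (both scores at least 200), pairs by rank shift (both below 3100) and runs of unshared peaks. The windows of chromosome 11 next to the named one were added after their values were seen. The comparisons and lists were chosen with earlier results of these data known. Gene tables of this build were not used here, and regions are given by mm9 position alone.

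Alternatives were a score of at least 100 or 200, equal numbers of strongest peaks, all chromosomes, overlap of at least 50% of the shorter peak, peaks joined across up to 500 bp, distances of 5000 and 25000 bp, windows of 10 Mb, and pairs of like score. Matching of peaks was first tested on simulated lists, where each joined, divided and unshared peak was found. The simulated loci lay well apart and none had several peaks on both sides, so such loci were not tested. Calculations used scipy 1.17.1 and numpy 2.4.6 under Python 3.11.15, and plots matplotlib 3.10.9.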

Additional observations from a re-analysis of the deposited data

How the results depend on the processing

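Shortening the WT list to as many of its strongest peaks as the mutant list holds turned 2 mutant minus WT differences round. The share of peaks with a neighbour within 12.5 kb then differed by 1.94 percentage points and the unshared share by 2.21, against -1.22 and -5.60 as reported. By construction this setting drops WT peaks alone and sets the ratio of peak numbers to 1. The dropped WT peaks were the least often shared, so the upward shift of the unshared difference follows from the setting too. With it the highest ratio of an autosome was 1.10 and the lowest 0.958, joined over divided loci 1.55, the median width ratio of pairs 1.03 (lower in the next digit) and the share of pairs wider in the mutant 55.9%. With scores of at least 200, fewer peaks enter: the ratio of peak numbers was 0.867, rho 0.693, joined loci 642, divided loci 264, their ratio 2.43, the share of wider pairs 58.5% and the difference in unshared share -8.40. Joining peaks across up to 500 bp first, which itself removes short gaps, gave 724 joined and 395 divided loci, 55.8% wider pairs and -6.76 percentage points for the unshared share. Pairs of like score had a median width ratio of 1.06 and 65.3% wider; the cause was not tested. The covered length ratio stayed between 1.00 and 1.07. A score of at least 100, all chromosomes and, where run, overlap of at least 50% left the direction of the ratio of peak numbers, the joined over divided ratio, the width ratio and the 2 differences above as reported. Loci with several peaks on both sides numbered 407 as reported, but 55 with overlap of at least 50%, 42 after joining across 500 bp and 174 with scores of at least 200. With overlap of at least 50% the unshared share was 19.8% of mutant and 25.7% of WT peaks. No paired analysis was possible because each genotype has 1 library, and no library could be left out. Unknown depth limits each difference in number, width and joining.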
